A study of Mus musculus with 31 samples.

Results

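The genes of the major histocompatibility complex (MHC), together with B2m, Cd74, Ciita, Tap1, Tap2 and Tapbp, were followed in liver RNA across 31 BXD mouse strains. Members were all probes that the platform annotation assigns to 1 gene whose symbol starts with H2-, plus the probes of those 6 named genes. This gave 39 probes of 32 genes among the 21765 probes that had a value on every array, of 23040 features in all. They comprised 19 class I probes (B2m among them), 9 probes of class II chains, 10 probes of peptide loading and control genes, and 1 probe of H2-Ke6, an enzyme gene that carries the H2 prefix because of its place in the complex. All 39 had 31 values and none was lost to a filter. 1 further probe listed several H2 genes and was left out by the rule.

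BXD strains are recombinant inbred mice, each fixed at every locus for the allele of C57BL/6J or of DBA/2J. For each strain (BxD/TyJ in the labels), whole-liver RNA from 3 males, 8 weeks old, was pooled and labelled with Alexa Fluor 647, and every array carried the same reference, a pool of 9 male C57BL/6J mice of that age labelled with Alexa Fluor 555. Each strain had 1 array, dyes were not exchanged, and the 20 ug reference labelling alone contained a spike-in RNA mix. Values are read as log2 of strain over reference, with the direction and log base likely but not given in the sources used here. A ratio gives no level, so the presence of hepatocyte or immune cell RNA could not be checked by level, and levels of different genes were not compared.

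MHC class I molecules are present on nearly all nucleated cells and hold peptides from the cell's interior for CD8 T cells. A polymorphic heavy chain (in mice H2-K, H2-D and, in some haplotypes, H2-L) pairs with beta-2-microglobulin, encoded by B2m. The pair is supplied with peptide by the transporter of Tap1 and Tap2 and the adaptor tapasin, encoded by Tapbp. Class II molecules are alpha and beta pairs (H2-A, H2-E) made mainly by B cells, dendritic cells and macrophages, in liver including Kupffer cells, and present endocytosed peptide to CD4 T cells. Their invariant chain is encoded by Cd74, H2-DM exchanges its remnant for peptide, H2-O restrains H2-DM, and Ciita is the transactivator that switches the class II genes on. C57BL/6J carries the H2b haplotype, which does not express the E alpha chain, and DBA/2J carries H2d, which does. Which haplotype each BXD strain carries was not analysed here.

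4 arrays stood apart from the rest, those of strains 23, 28, 40 and 42. Their median correlation with the other arrays over all probes was 0.06 to 0.37, against 0.67 to 0.79 for 26 other arrays and 0.57 for strain 38. These 4 strains held the lowest value of 25 of the 39 members (64.1%), against 44.5% of all probes. Results are therefore also given for the 27 strains without them, and where strain 38 matters for the remaining 26. Probes whose identifier is a multiple of 8 had a median of -0.63, while the other 7 remainders lay between -0.02 and 0.10. 2 members belong to that set, a probe of H2-Q2 and a probe of H2-Q5.

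The mean over the 31 strains was above the reference for 19 of 39 member probes, below it for 9, and not different from it by the test for 11 (limma, mean against 0, Benjamini-Hochberg adjusted p under 0.05 over all 21765 probes). Among all probes 75% passed this test, 37.4% higher and 37.6% lower, so passing it is the common case on these arrays. The median panel mean was 0.08 over the members and 0.00 over all probes. Class I had 8 probes higher and 5 lower of 19, class II chains 3 higher and 4 lower of 9, and loading and control genes 7 higher and 0 lower of 10 (the 3 others did not pass). Asking instead for a mean beyond 0.2 in either direction left 7 higher and 3 lower of the 39. Among all 21765 probes 33.2% passed that test, 3187 higher and 4042 lower, so members did not pass it more often. The reference was 1 pool on every array, so the test leaves out its own spread, and a dye effect on a probe adds to its mean. In bulk liver RNA, fewer cells of a type and less RNA per cell cannot be told apart.

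**Figure D1:**
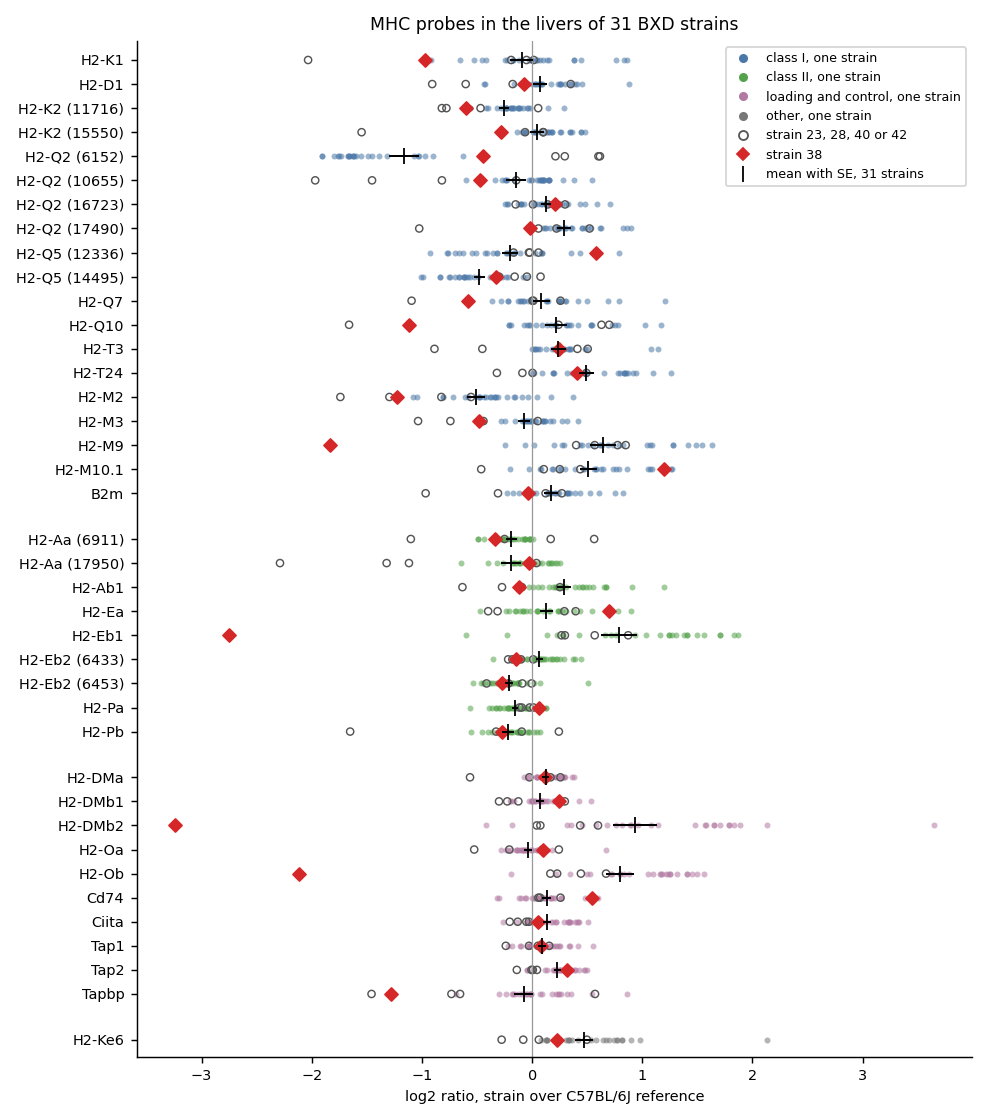
Each row is 1 MHC probe and each point the log2 ratio (strain over C57BL/6J reference) of 1 of 31 BXD strains, with the 4 arrays that stood apart as open circles, strain 38 as a red diamond, and the mean with its SE over 31 strains as a black bar. H2-Eb1, H2-DMb2, H2-Ob and H2-M9 have positive means and lie lowest in strain 38, between -3.24 and -1.83, whereas in that strain the probes of H2-Aa, H2-DMa and Ciita lie between -0.34 and 0.11.

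The spread between strains was wide for 9 members, with an SD of 0.5 or more, that is 23.1% of members against 7.27% of all probes. They were H2-DMb2 (1.13), H2-Eb1 (0.91), a probe of H2-Q2 (0.74), H2-Ob (0.71), H2-M9 (0.66), H2-K1 (0.56), H2-Q10 (0.56), a probe of H2-Aa (0.53) and a further probe of H2-Q2 (0.51). Without the 4 arrays apart 4 of them remained at that SD, H2-DMb2, H2-Eb1, H2-Ob and H2-M9, against 3.12% of all probes. Without strain 38 as well, H2-DMb2, H2-Eb1 and H2-M9 remained, at SDs of 0.83, 0.66 and 0.51, against 2.87%.

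Among class II chains, the beta chain gene H2-Eb1 had the widest range. Its log2 ratio was -2.75 in strain 38, the lowest, had a median of 0.93 and reached 1.87 in strain 18. It was above 0 in 28 of 31 strains, and the strain next to the lowest, 39, stood at -0.60, so that 2.15 separated strain 38 from the nearest strain. The panel mean was 0.79 ± 0.16 (SE, n = 31), a 1.73-fold higher value than the reference (limma, adjusted p = 2.25e-05).

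The other classical class II chains did not share that range. H2-Ab1, the A beta chain gene, ran from -0.63 in strain 40 through a median of 0.26 to 1.19 in strain 18, with a mean of 0.29 ± 0.06 (adjusted p = 6.38e-05, limma). H2-Aa, its alpha partner, was measured by 2 probes that correlated weakly with each other across strains (r = 0.15, adjusted p = 0.57 by permutation), or 0.41 without the 4 arrays apart. One ran from -1.10 in strain 42 through -0.19 to 0.56 in strain 28 and was lower than the reference (-0.19 ± 0.05, limma, adjusted p = 0.00052). The other ran from -2.29 in strain 23 through -0.03 to 0.25 in strain 9 and missed the threshold at a mean of -0.19 (limma, adjusted p = 0.052). Its 3 lowest values came from strains 23, 40 and 42, and its SD of 0.53 was 0.21 without the 4 arrays apart.

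H2-Ea, the E alpha chain gene, was a special case by background, since the reference haplotype does not express it. Its probe ran from -0.47 in strain 2 through 0.10 to 0.90 in strain 31, with 19 strains above 0. The largest step between neighbouring strains in that order was 0.15, so the values formed a continuous range. The mean, 0.13 ± 0.06, passed narrowly (limma, adjusted p = 0.045), and did not without strain 38, where H2-Ea was at 0.70 (adjusted p = 0.082 over 30 strains). No intensities were used here, so the signal of this probe over background is unknown.

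The remaining class II chains changed little. H2-Eb2, a further E beta gene, had 1 probe at 0.06 ± 0.03 that did not pass, but did without the 4 arrays apart (0.09, limma, adjusted p = 0.019), and 1 at -0.21 ± 0.04 that was lower (limma, adjusted p = 4e-06), with r = 0.18 between them. The pseudogene H2-Pa was at -0.16 ± 0.03, and ran from -0.57 in strain 18 through -0.16 to 0.13 in strain 27. H2-Pb was at -0.22 ± 0.06, with a lowest value of -1.65 in strain 42, a median of -0.17 and a highest value of 0.24 in strain 40, both extremes being arrays that stood apart.

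Of the genes for class II peptide exchange, H2-DMb2 and H2-Ob stood out and their partners did not. H2-DMb2, a beta chain gene of H2-DM, was lowest in strain 38 at -3.24, had a median of 0.90 and was highest in strain 18 at 3.65, where it was the top probe of that array. The arrays share their sorted values, so the top probe of every array has this value. It was above 0 in 28 strains and its mean was 0.93 ± 0.20, or 1.91-fold (limma, adjusted p = 4.5e-05). H2-Ob, the beta chain gene of H2-O, ran from -2.12 in strain 38 through 0.88 to 1.56 in strain 18. It was above 0 in 29 strains, with a mean of 0.80 ± 0.13, or 1.74-fold (limma, adjusted p = 2.84e-07).

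The alpha and sister chains had narrow ranges. H2-DMa ran from -0.56 in strain 23 through 0.12 to 0.38 in strain 34 and was higher than the reference at 0.12 ± 0.03 (limma, adjusted p = 0.00107). H2-DMb1 ran from -0.30 in strain 28 through 0.07 to 0.54 in strain 34 and did not pass (0.07 ± 0.03, limma, adjusted p = 0.065), but did without the 4 arrays apart (0.09, limma, adjusted p = 0.0105). H2-Oa ran from -0.53 in strain 28 through -0.06 to 0.67 in strain 13 and did not pass (-0.03 ± 0.04, limma, adjusted p = 0.41).

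Cd74 and Ciita, the invariant chain and the class II transactivator, were both slightly higher than the reference and opposed each other across strains. Cd74 ran from -0.32 in strain 16 through 0.10 to 0.60 in strain 36 (mean 0.13 ± 0.04, limma, adjusted p = 0.00427). Ciita ran from -0.27 in strain 18 through 0.13 to 0.51 in strain 29 (mean 0.14 ± 0.04, limma, adjusted p = 0.00172), and stood at 0.04 (limma, adjusted p = 0.306) after subtraction of each array's median over probes with the same identifier remainder by 8. Their correlation across strains was r = -0.56 (permutation p = 0.00074, adjusted p = 0.0141 over the 703 pairs of members computed) and rho = -0.62 (permutation p = 0.00026, adjusted p = 0.0102). It was -0.59 without the 4 arrays apart and -0.56 without strains 36 and 39, whose Cd74 lay farthest from the median.

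Strain 38 gave the lowest of the 31 values for 4 members, H2-Eb1, H2-DMb2, H2-Ob and H2-M9, that is 10.3% of members against 3.13% of all probes. H2-M9, a class I gene of the M region, stood at -1.83 in that strain, with a median of 0.63, a highest value of 1.64 in strain 19 and 28 strains above 0. Its mean was 0.64 ± 0.12 (limma, adjusted p = 4.07e-06). 7 members were at -1 or lower in strain 38, against 4.75% of all probes, or 17.9% of members. This count was not particular to strain 38, since strain 40 also had 7 and strain 42 had 5, at the same share of all probes. The array of strain 38 had 136 probes (0.625%) at -2 or lower, 3 of them members (H2-Ob, H2-Eb1 and H2-DMb2). 12 members (30.8%) had strain 38 among their 3 lowest strains, against 10.4% of all probes. H2-DMb2 was the 3rd lowest probe of that array and H2-Eb1 the 11th lowest.

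The other class II members stood close to the reference or above it there, H2-Ab1 being the 3rd lowest of its strains. In strain 38 the H2-Aa probes stood at -0.34 and -0.03, H2-Ab1 at -0.12, H2-Ea at 0.70, H2-DMa at 0.11, H2-DMb1 at 0.24, H2-Oa at 0.10, Cd74 at 0.55 and Ciita at 0.05. In the order of genes along chromosome 17, H2-DMb2 lies between H2-DMa and H2-DMb1, H2-Ob between Tap2 and H2-Ab1, and H2-Eb1 between H2-Aa and H2-Eb2 among the members, so each of the 3 low genes has neighbours that were near the reference or above it. Class I members low in strain 38 were H2-M2 (-1.22, 3rd lowest of its 31 strains), H2-Q10 (-1.11, 2nd lowest) and H2-K1 (-0.97, 2nd lowest), and the loading gene Tapbp stood at -1.29 (2nd lowest). Without the 4 arrays apart strain 38 was the lowest strain for 12 members, against 6.97% of all probes, the 8 added being H2-K1, both H2-K2 probes, H2-Q7, H2-Q10, H2-M2, H2-Ab1 and Tapbp.

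**Figure D2:**
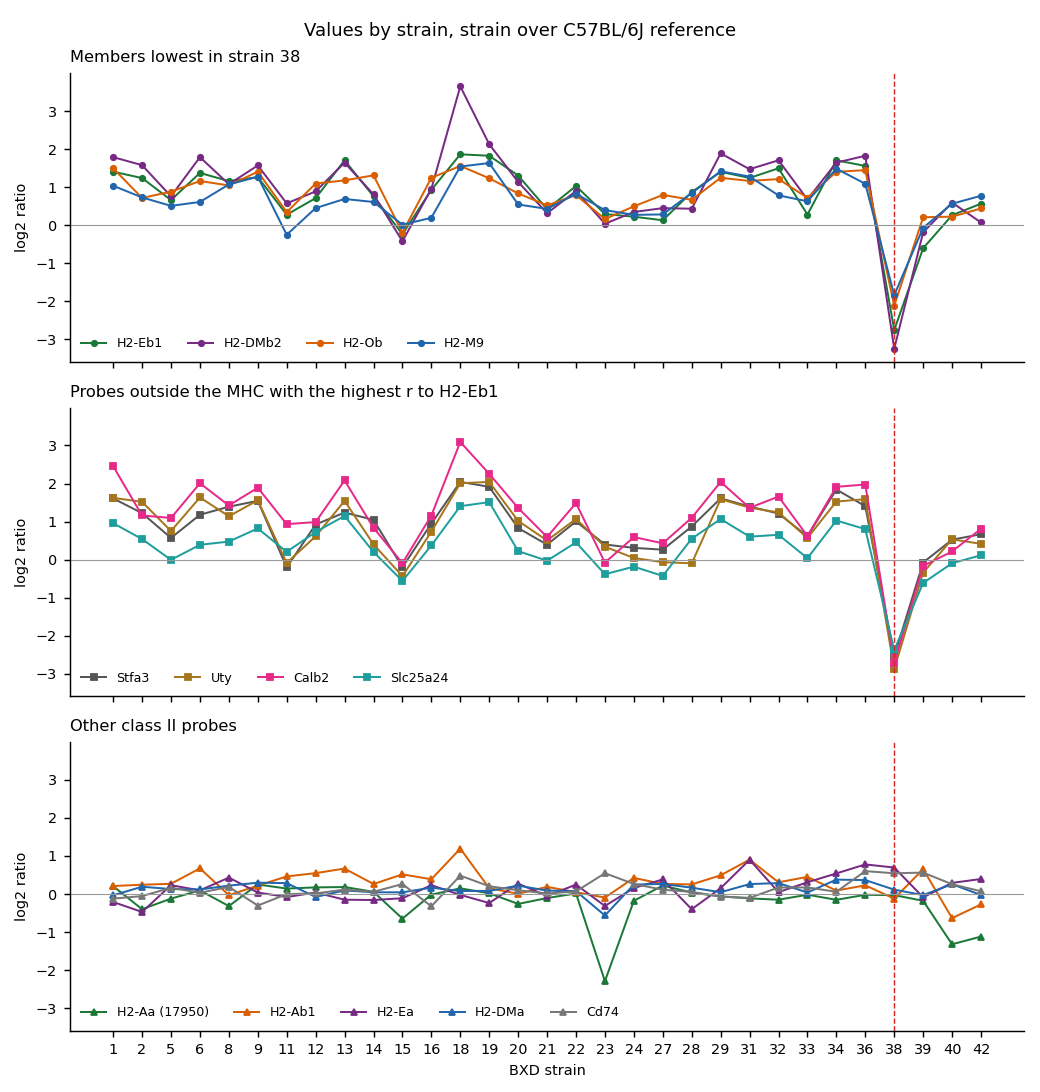
Log2 ratios (strain over reference) are plotted by BXD strain, in 3 panels on 1 scale, for H2-Eb1, H2-DMb2, H2-Ob and H2-M9, for Stfa3, Uty, Calb2 and Slc25a24, and for H2-Aa, H2-Ab1, H2-Ea, H2-DMa and Cd74; lines only join the points, since strains have no order, and the dashed line marks strain 38. The upper and middle panels share their highs, such as strain 18, and the low of strain 38, and in the lower panel H2-Ea and Cd74 are above 0 in strain 38. Genes of the middle panel were chosen by r to H2-Eb1 over all strains, strain 38 included.

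H2-Eb1, H2-DMb2, H2-Ob and H2-M9 followed each other closely over the strains. The 6 pairwise r values lay between 0.86 (H2-M9 with H2-Ob) and 0.94 (H2-Eb1 with H2-DMb2), each with a permutation p of 1e-05, the smallest that 100000 permutations can give, and an adjusted p of 0.000502 over the 703 pairs. These members were picked for their low in strain 38, which enters these r values. The p-values are therefore not independent of that choice. Spearman's rho lay between 0.70 and 0.93. Leaving out strain 38 and the next most distant strain left r between 0.71 and 0.89, and leaving out strain 38 and the 4 arrays apart left 0.76 to 0.90, so the relation did not rest on strain 38. With 13 other probes of class II chains and of H2-DMa, H2-DMb1, H2-Oa, Cd74 and Ciita, H2-Eb1 had a median r of 0.09, from -0.49 with H2-Pa to 0.31 with a probe of H2-Eb2. H2-DMb2 likewise had a median of 0.12, and its highest was 0.42 with H2-Ab1.

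The probes most like H2-Eb1 and H2-DMb2 were mostly not MHC genes. Of the 10 named genes outside the members with the highest r to H2-Eb1 over 31 strains, the nearest were Stfa3 (r = 0.96), a cysteine protease inhibitor of the stefin family, Uty (0.96), a Y-linked gene, Calb2 (0.96), the calcium-binding protein calretinin, and Slc25a24 (0.96), a mitochondrial carrier, followed by Fcgr2b (0.95), the inhibitory Fc receptor. Calb2, Uty, Abhd13, Stfa3 and Ly75, an endocytic receptor of dendritic cells, were nearest to H2-DMb2, at r of 0.96 to 0.93. These r values describe likeness only and were given no test. In strain 38, Stfa3 was at -2.54, Uty at -2.88, Calb2 at -2.71, Slc25a24 at -2.38 and Fcgr2b at -2.42, each the lowest of its 31 strains. In all, 55 probes correlated with H2-Eb1 at r of 0.8 or more and all 55 were lowest in strain 38. Strain 38 was part of these r values, so a low value there helped to select these probes and the genes named above. Without strain 38 and the 4 arrays apart 34 probes reached that r, 29 of them among the 55. Of these 34, chosen without strain 38, 29 were lowest in it.

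Some of these probes share a remainder of the array identifier. H2-Eb1, H2-DMb2 and H2-Ob leave the same remainder, 189, when the identifier is divided by 480, as do Fcgr2b and Klrb1b, a further pair with r of 0.8 or more to H2-Eb1. That makes 4 of the 47 other probes at this remainder (8.51%), against 51 of the other 21717 (0.235%). Most of the 55 thus have another remainder, but these too were partly shared. With H2-Eb1 counted in, 21 of the probes fell on 7 shared remainders. An identifier within 8 of another probe of the set was found for 19 of the 55. For these 2 counts no share over all probes was computed. The median r of the 47 with H2-Eb1 was -0.01, and H2-Ab1, at the same remainder, had r = 0.26 with H2-Eb1 (permutation p = 0.15, adjusted p = 0.39). H2-M9, identifier 20250, lies beside Stfa3 (20252), the B-cell gene Ms4a1 (20254) and Uty (20256). Of all members, 17 of 39 (43.6%) had remainders from 188 to 196, where 1.95% of all probes lie. The divisor 480 and this range were chosen after the values were seen, the sources do not say how identifiers map to places, and the part of array place in these results was not tested.

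To show what the regulatory DNA of these genes shares, 100 bases of promoter are printed for H2-Eb1, H2-DMb2, H2-Ob and H2-M9, which moved together, and for H2-Aa and H2-Oa, which were near the reference in strain 38. Class II promoters carry a Y box, an inverted CCAAT sequence bound by the factor NF-Y. Capitals mark ATTGG, or CCAAT where it lies on the opposite strand. Sequences run from -130 to -31 of the transcript start that RefSeq's promoter entry uses (GRCm38.p6), 5′ to 3′ on the gene's strand. For H2-DMb2 that start lies inside the gene as RefSeq bounds it, so an earlier start is not shown.
H2-Eb1: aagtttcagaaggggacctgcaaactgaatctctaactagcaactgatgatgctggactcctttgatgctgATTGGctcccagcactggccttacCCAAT
H2-DMb2: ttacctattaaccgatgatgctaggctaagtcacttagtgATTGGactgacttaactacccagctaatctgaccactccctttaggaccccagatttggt
H2-Ob: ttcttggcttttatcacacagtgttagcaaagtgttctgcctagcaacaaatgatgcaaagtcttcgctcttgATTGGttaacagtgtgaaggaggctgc
H2-M9: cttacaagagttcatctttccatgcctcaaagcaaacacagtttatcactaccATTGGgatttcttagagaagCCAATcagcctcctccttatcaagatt
H2-Aa: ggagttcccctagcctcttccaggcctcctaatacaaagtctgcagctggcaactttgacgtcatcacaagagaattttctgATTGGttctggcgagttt
H2-Oa: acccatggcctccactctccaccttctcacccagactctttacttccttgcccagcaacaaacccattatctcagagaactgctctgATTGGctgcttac

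These lie at chr17:34305737-34305836 (H2-Eb1, forward strand), chr17:34145119-34145218 (H2-DMb2, forward), chr17:34238775-34238874 (H2-Ob, forward), chr17:36642694-36642793 (H2-M9, reverse), chr17:34287854-34287953 (H2-Aa, reverse) and chr17:34092249-34092348 (H2-Oa, forward). On the gene's strand ATTGG began at -59 in H2-Eb1, -90 in H2-DMb2, -57 in H2-Ob, -77 in H2-M9, -48 in H2-Aa and -43 in H2-Oa. Searched on both strands in the 250 bases before the start in 32851 promoters, ATTGG was present in 33.8% and in 22 of the 25 promoters listed for 22 member genes. The longer CTGATTGG, which contains it, was in 3.83% of all and in 10 of the 25, among them H2-Eb1, H2-M9, H2-Aa and H2-Oa but not H2-DMb2 or H2-Ob. In the printed stretch of H2-M9 the longer motif lies on the opposite strand, as CCAATCAG, and not at -77. H2-M9 is listed with 2 promoters, of which the first is printed. The matches did not separate the genes that were low in strain 38 from those that were not. Of the 10 non-members nearest to H2-Eb1, 7 had a listed promoter and 1, Stfa3, held ATTGG.

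The classical class I genes H2-K1 and H2-D1 did not pass the test of their panel means against the reference. H2-K1 ran from -2.03 in strain 28 through -0.01 to 0.86 in strain 29, with 14 strains above 0 and a mean of -0.10 ± 0.10 (limma, adjusted p = 0.37). H2-D1 ran from -0.91 in strain 40 through 0.07 to 0.88 in strain 19, with 21 strains above 0 and a mean of 0.07 ± 0.06 (limma, adjusted p = 0.28). Without the 4 arrays apart H2-D1 was higher, at 0.13 (adjusted p = 0.017, n = 27, limma). The high strains differed between both genes only in part, since strain 19 was highest for H2-D1 and came after strain 29 for H2-K1, at 0.84.

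Genes of the Q region, which lie next to H2-D, had means of either sign. H2-Q10, which encodes a secreted class I molecule made mainly by liver, ran from -1.66 in strain 28 through 0.24 to 1.17 in strain 19 and was higher than the reference (0.21 ± 0.10, limma, adjusted p = 0.04). The call was lost when each array's median over probes of the same identifier remainder by 8 was subtracted (0.12, limma, adjusted p = 0.255). H2-Q7 ran from -1.09 in strain 40 through 0.01 to 1.21 in strain 29 and did not pass (0.08 ± 0.07, limma, adjusted p = 0.29). H2-Q2 had 4 probes with means of -1.16, -0.14, 0.13 and 0.29, of which all but the second passed, and H2-Q5, a transcribed pseudogene in RefSeq, had 2 lower probes at -0.20 and -0.48. Class I heavy chains are near-identical over long stretches, so a probe may bind transcripts of several of them, and means that differ between probes of 1 gene cannot be assigned to it with certainty.

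The H2-Q2 probe at -1.16 has an identifier that is a multiple of 8. It ran from -1.91 in strain 15 through -1.49 to 0.62 in strain 40, and the only 4 strains above 0 were 23, 28, 40 and 42, whose arrays stood apart. After subtraction of each array's median over probes with the same remainder it stood at -0.59 and remained lower, whereas the H2-Q5 probe of the same set turned from -0.20 to 0.37. The 2 H2-K2 probes were at -0.25 ± 0.05 (limma, adjusted p = 6.87e-06) and 0.05 ± 0.06, with r = 0.56 between them. The latter did not pass, but did without the 4 arrays apart (0.11, limma, adjusted p = 0.0208).

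Among class I genes of the T and M regions, most of which encode nonclassical molecules, H2-T24 (0.49 ± 0.07), H2-T3 (0.24 ± 0.06), which encodes the thymus leukaemia antigen, H2-M9 and H2-M10.1 were higher than the reference and H2-M2 was lower. H2-M10.1, of a family expressed with pheromone receptors, ran from -0.46 in strain 42 through 0.47 to 1.27 in strain 11, with a mean of 0.51 ± 0.08 and 28 strains above 0 (limma, adjusted p = 1.91e-07). H2-M2 ran from -1.74 in strain 28 through -0.44 to 0.37 in strain 19, with 28 strains below 0 and a mean of -0.51 ± 0.08 (limma, adjusted p = 3.49e-07). H2-M3, which presents formylated peptides, did not pass at -0.07 ± 0.05, with a lowest value of -1.04 in strain 40, a median of -0.01 and a highest value of 0.41 in strain 5.

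The class I light chain and the peptide transporter were slightly higher than the reference. B2m ran from -0.97 in strain 40 through 0.21 to 0.82 in strain 18, with 24 strains above 0 and a mean of 0.17 ± 0.06 (limma, adjusted p = 0.00818). Tap2 ran from -0.14 in strain 23 through 0.255 to 0.50 in strain 11 and was above 0 in 27 strains, with a mean of 0.23 ± 0.03 (limma, adjusted p = 8.17e-08). Tap1 ran from -0.24 in strain 42 through 0.08 to 0.55 in strain 1 (0.09 ± 0.03, limma, adjusted p = 0.0175), and did not pass after the same subtraction (0.03, limma, adjusted p = 0.492). Both transporter chains, whose proteins act as a dimer, had an r of -0.01 across strains (permutation p = 0.94, adjusted p = 0.97). Tapbp ran from -1.46 in strain 42 and -1.29 in strain 38 through -0.02 to 0.86 in strain 29 and did not pass (-0.08 ± 0.09, limma, adjusted p = 0.41).

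The promoters of H2-K1, H2-D1, H2-Q7 and H2-Q10 are printed because they belong to the class I genes described above and class I promoters are known for the elements marked. Capitals mark GGGATTCCC, the core of the kappa B element of enhancer A, and TTTCACTTC, the interferon response element. Sequences run from -180 to -81 of the start used in RefSeq's promoter entry (GRCm38.p6; the first of the entries for H2-K1), 5′ to 3′ on the gene's strand. For H2-K1 and H2-Q7 that start also lies inside the gene's bounds.
H2-K1: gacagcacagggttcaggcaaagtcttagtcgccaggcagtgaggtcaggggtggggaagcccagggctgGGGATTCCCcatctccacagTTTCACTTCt
H2-D1: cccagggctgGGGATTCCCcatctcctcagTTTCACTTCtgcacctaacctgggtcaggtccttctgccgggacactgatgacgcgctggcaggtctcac
H2-Q7: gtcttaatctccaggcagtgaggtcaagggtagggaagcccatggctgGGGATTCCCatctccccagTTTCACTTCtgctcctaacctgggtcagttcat
H2-Q10: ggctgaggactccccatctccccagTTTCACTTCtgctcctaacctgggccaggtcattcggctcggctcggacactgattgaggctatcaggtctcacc

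These lie at chr17:34000428-34000527 (H2-K1, reverse strand), chr17:35262914-35263013 (H2-D1, forward), chr17:35438975-35439074 (H2-Q7, forward) and chr17:35469909-35470008 (H2-Q10, forward). Searched on both strands, GGGATTCCC was in 0.301% of the 32851 promoters and TTTCACTTC in 0.402%, against 4 and 6 of the 25 promoters of members, H2-K1 being listed with 2. H2-Q10 holds the second and not the first within these 250 bases. The correlation of H2-K1 with H2-Q10 is given next.

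Class I probes resembled each other across strains. Their pairs include probes of the same gene (H2-Q2, H2-K2, H2-Q5), and a probe may bind transcripts of several class I genes. The part of either in this likeness was not tested. Of the 171 pairs of class I probes 20.5% reached r of 0.5, against 3.47% of all pairs of probes on the array, and without the 4 arrays apart the shares were 21.6% and 1.63%. Over all 703 pairs of the 38 members other than H2-Ke6, 65 pairs (9.25%) did so, and without the 4 arrays apart and strain 38 42 pairs (5.97%) did, against 1.57% of all pairs. At r of -0.5 or lower stood 12 pairs, against 3.17% of all. In the test, 60 positive and 14 negative pairs passed at an adjusted p under 0.05 (permutation, Benjamini-Hochberg over the 703). Pairs between class I and loading genes were near the background, at 3.68%, and pairs among class II chains numbered 3 of 36 (8.33%), or 1 of 36 without the 4 arrays apart.

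H2-K1 and H2-Q10 had r = 0.84 and rho = 0.68 (permutation p = 1e-05, the smallest possible, and 8e-05, adjusted p = 0.000502 and 0.00433). The value was 0.77 without the 4 arrays apart and 0.68 without strains 28 and 38, the lowest 2 for H2-K1. H2-D1 and the H2-Q2 probe with identifier 10655 had r = 0.80 and rho = 0.79, and 0.79 without the 4 arrays apart. H2-K1 with H2-M2 reached 0.80 and 0.77, H2-D1 with H2-M3 0.82 and 0.64, and the H2-K2 probe 15550 with the H2-Q2 probe 17490 0.87 and 0.79, over 31 and 27 strains in that order. H2-K1 and H2-D1 themselves had r = 0.23 (permutation p = 0.21, adjusted p = 0.45), and 0.53 over 27 strains (adjusted p = 0.054).

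In likeness to all probes, class I members were often near each other, with the same limit on what a probe binds. Of the 190 places among the 10 nearest probes of the 19 class I probes, 16 (8.42%) were held by class I members over 31 strains and 31 (16.3%) over 27, while class I members make up 0.0873% of all probes. H2-K1 had the most over 27 strains, with 5 of 10. B2m, whose product joins every class I heavy chain, had r = 0.04 with H2-K1 and 0.51 with H2-D1 over 31 strains (adjusted p = 0.89 and 0.046), and 0.08 and 0.11 over 27.

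**Figure D3:**
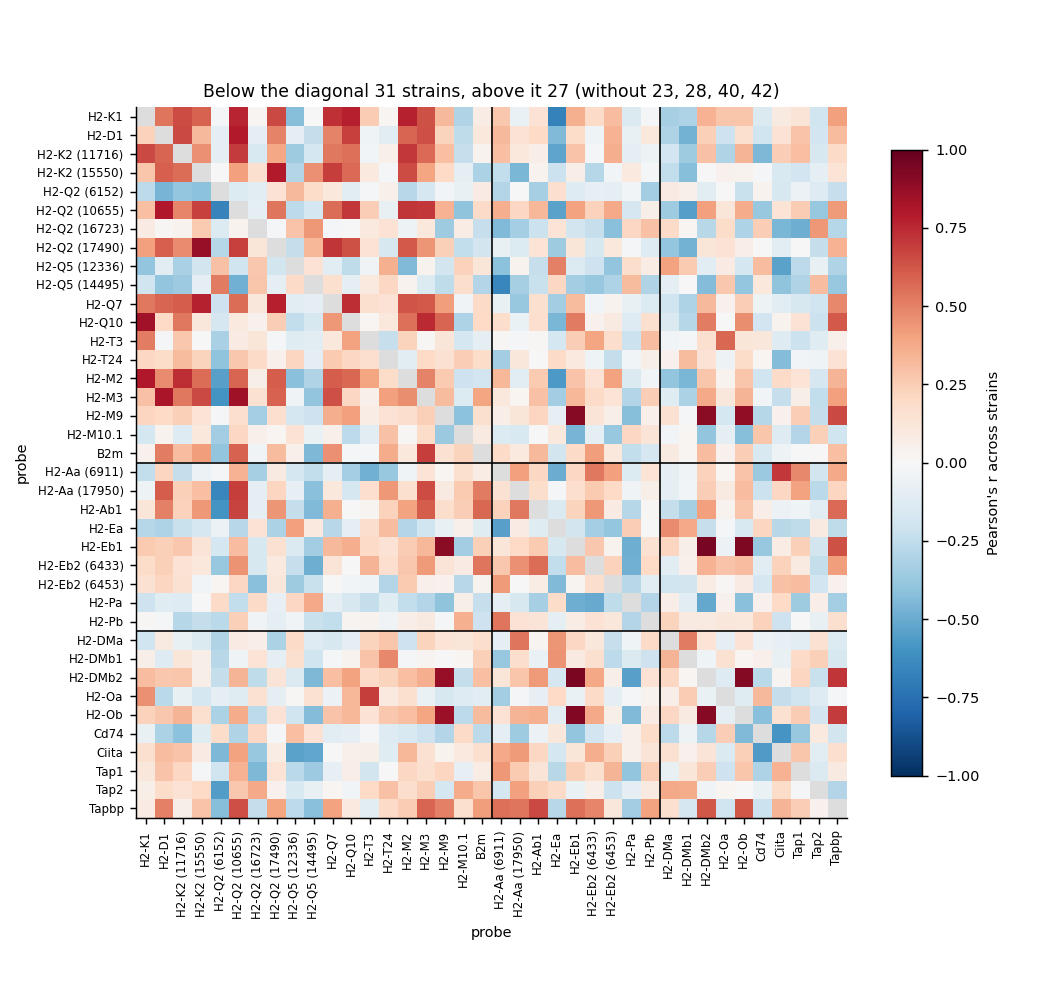
Cells give Pearson's r across strains for each pair of 38 MHC probes, over 31 strains below the diagonal and over 27 strains (without 23, 28, 40 and 42) above it, on a colour scale from -1 to 1, with black lines between class I, class II and loading and control probes and identifiers after symbols with several probes. The class I block at upper left holds most of the high values, and H2-M9, H2-Eb1, H2-DMb2 and H2-Ob form a set of their own with r of 0.86 to 0.94 below the diagonal.

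Some pairs joined genes of different roles. Tapbp correlated with H2-Ab1 (r = 0.66, rho = 0.53, permutation p = 0.00016 and 0.00232, adjusted p = 0.00592 and 0.0466), or 0.57 over 27 strains. Tapbp with H2-DMb2 was at 0.62 over 31 strains, 0.72 over 27 and 0.46 over 26, the last without strain 38 as well. B2m with H2-Ab1 was at 0.57 (adjusted p = 0.0197) and fell to 0.21 without strains 40 and 18, so it rested on those strains. The H2-Aa probe 6911 opposed H2-Ea at r = -0.54 and rho = -0.72 (permutation p = 0.0016 and 2e-05, adjusted p = 0.0216 and 0.00141), and at -0.50 over 27 strains (adjusted p = 0.091). The same H2-Aa probe had r = 0.38 with Ciita over 31 strains (adjusted p = 0.16) and 0.71 over 27 (adjusted p = 0.00117).

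**Figure D4:**
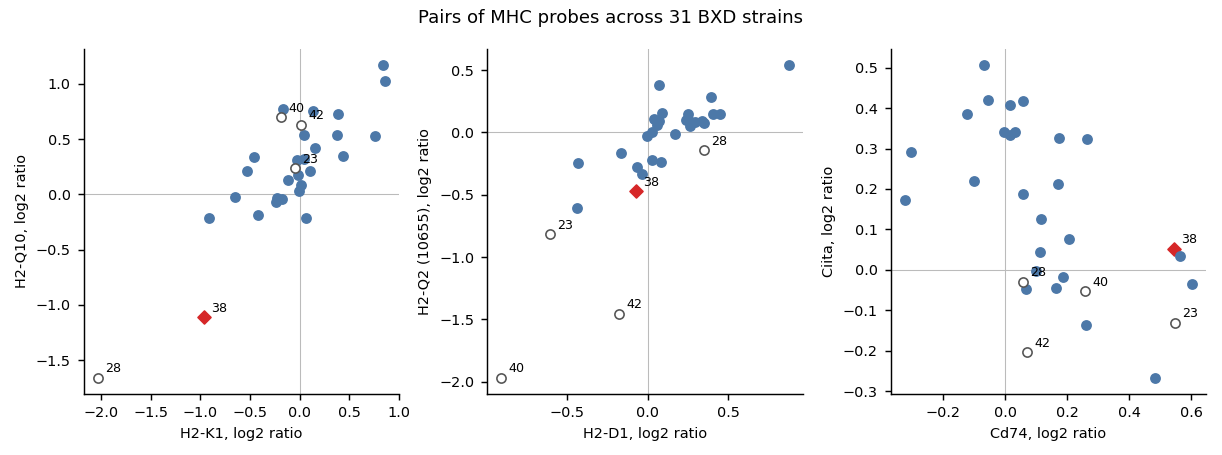
Log2 ratios of 2 MHC probes are plotted against each other for H2-K1 and H2-Q10 (left), H2-D1 and the H2-Q2 probe 10655 (middle) and Cd74 and Ciita (right), 1 point per BXD strain, with open circles for the 4 arrays that stood apart and a red diamond for strain 38. The left and middle pairs rise together, at r of 0.84 and 0.80, strains 28 and 40 lying at their low ends, and the right pair falls, at -0.56.

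By strain, the lowest member values followed the background in some arrays and exceeded it in others. Strain 40 held the lowest value of 10 members (25.6%, against 13.8% of all probes), strain 28 of 6 (15.4%, against 12.8%), strain 42 of 5 (12.8%, against 8.22%), strain 23 of 4 (10.3%, against 9.77%) and strain 38 of 4 (10.3%, against 3.13%). Strains 23 and 28 were thus near the background. Strain 19 held the highest value of 7 members, against 1.7% of all probes, and strain 18 of 5, against 1.65%. In strain 19 these included H2-D1, H2-Q10, H2-M2, H2-M9 and both H2-K2 probes, and in strain 18 H2-DMb2, H2-Eb1, H2-Ob, H2-Ab1 and B2m. The array of neither strain stood apart, with median correlations of 0.78 and 0.79.

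H2-Ke6, which encodes a steroid dehydrogenase and presents no peptide, was higher than the reference at 0.47 ± 0.08 (limma, adjusted p = 9.29e-07). It ran from -0.28 in strain 40 through 0.36 to 2.13 in strain 32, which lay 1.15 above the next strain.

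In 4 lists of genes that act around the MHC or resemble its members, no probe was lowest in strain 38. Of all probes 3.13% were, so none in lists this short is near the background. Over the whole array 37.4% of probes were higher than the reference and 37.6% lower. Of 8 measured genes for the immunoproteasome and peptide supply (9 probes), 6 probes were higher than the reference and 3 lower, with Calr, the chaperone calreticulin, at 0.55 and Psmb9, the proteasome subunit encoded beside Tap1, at -0.35 with an identifier that is a multiple of 8. Of 12 probes for class II transcription and proteolysis, 7 were higher and 4 lower. In strain 38 these 12 ran from -0.54 to 0.86, and 4 of them were below their median over the strains. Rfxap and Rfx5, parts of the factor that binds the X box, were at 0.86 and 0.17 there. Of 10 probes of interferon gamma targets, 2 were higher and 6 lower, Gbp2 being the most negative at -0.55 and Igtp at 0.43. Of 9 MHC-like genes outside the complex 5 were higher and 2 lower.

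Markers of the cells that carry class II were read beside these results. Of all probes, 3.13% were lowest in strain 38, 37.4% were higher than the reference and 37.6% lower. Of 15 B-cell probes, 8 were higher and 5 lower than the reference, and 2 were lowest in strain 38, Ms4a1 at -0.91 and a probe of Ighm at -0.32, while the median of the 15 in that strain was -0.02 and the range -0.91 to 0.56. Of 6 dendritic cell probes 2 were higher and 2 lower than the reference, and 1, Ccr7, was lowest there at -1.82, its identifier being a multiple of 8 and its panel mean -1.19. None of 10 Kupffer cell and macrophage probes was lowest in strain 38, where they ran from -0.53 to 0.64, nor any of 10 T and NK cell probes or 12 hepatocyte probes. In lists this short, none is near the background. Strain 38 was 2nd lowest for Cd3e and 3rd lowest for Cd79a, Cd2 and Cd5l. It lay below the probe's median for 7 of 15 B-cell, 5 of 6 dendritic cell and 7 of 10 Kupffer cell and macrophage probes. The same held for 6 of 10 T and NK cell, 2 of 4 endothelial and 5 of 12 hepatocyte probes. Over all 21765 probes it held for 10283. In panel means, 6 Kupffer cell and macrophage probes were higher and 1 lower, 2 T and NK cell probes were higher and 5 lower, and 5 hepatocyte probes were higher and 5 lower. All 4 endothelial probes were higher, and 1 of them, Lyve1, was lowest in strain 38 at -0.33. The part of the number of such cells in the values of H2-Eb1, H2-DMb2 and H2-Ob was not tested.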

How the data were processed

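Log ratios per probe were deposited by the authors, and limma and R 2.0.0 are named in the submitters' processing notes. The deposited values were read as log2 of strain (Alexa Fluor 647) over reference (Alexa Fluor 555). How background was corrected and arrays were normalized is unknown here. All arrays share the same sorted values to within 0.000256, with a median of -0.001 and an SD of 0.51. Precision is limited by the number of arrays. There were 1275 empty features. Members and lists were chosen with earlier results of these data known.

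Panel means were tested with limma 3.58.1 in R 4.3.3 (intercept, lmFit, eBayes, two-sided, adjusted over 21765 probes). The limma p-values set the panel mean against the spread between strains, each a pool with 1 array, so that spread includes array error. Correlations used 100000 two-sided permutations. Strain 38 values and spreads are descriptions. Named genes followed a rule (class II, loading genes, H2-K1, H2-D1, B2m, the largest SDs and the extreme means), and the other members and a few non-members were added. Of the 32 genes, 29 matched RefSeq (GRCm38.p6) by gene identifier and H2-K2, H2-Ea and H2-Pb by symbol only. Promoters were listed for 22. Alternatives left out arrays, corrected for the identifier's remainder by 8, rescaled, recentred or weighted arrays, averaged probes, used rank correlation or changed the null. The fit was tested on simulated data.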

Additional observations from a re-analysis of the deposited data

How the results depend on the processing

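The panel counts of 19 higher and 9 lower member probes became 7 and 3 when a mean beyond 0.2 was asked for, where 33.2% of all probes passed. They stayed between 16 and 24 higher and between 7 and 9 lower under the other settings, with averaged probes counted as genes. By the place correction 1 mean turned sign, that of the H2-Q5 probe 12336 at 0.37, and 4 others no longer passed, H2-Q2 (probe 16723), H2-Q10, Ciita and Tap1. Leaving out strain 38 lost only H2-Ea. Scaling, centring and robust variances changed no call on a member. The 65 member pairs at r of 0.5 or more became 39 by Spearman's rho and 42 without strains 23, 28, 38, 40 and 42, a setting added after seeing the data. The count of members lowest in strain 38 rose from 4 to 12 without strains 23, 28, 40 and 42. With fewer strains it could only rise or stay, and the share of all probes went from 3.13% to 6.97%. The 9 members with an SD of 0.5 or more became 4 without those 4 strains, 3 without strain 38 as well, and 4 by the median absolute deviation. Of these changes the cause was not tested otherwise. With 1 array per strain, a strain's own value has no replicate check. No paired analysis was possible because all strains form 1 group.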
